A study of Mus musculus with 22 samples.

Results

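The 46 genes described here encode ligands, receptors, signal transducers, inhibitors and targets of the transforming growth factor beta (TGF-beta) and bone morphogenetic protein (BMP) pathways. They were chosen by symbol from a written list and matched to 46 of the 55414 gene identifiers in the deposited count table. All 46 passed the filter on low counts, which left 17554 genes for testing. By role there were 3 TGF-beta ligands, 2 activin ligands, 7 BMP and GDF ligands, 10 receptors, 5 signalling SMADs, 6 inhibitors that act in or at the cell, 4 latent binding proteins, 5 secreted antagonists and 4 target genes.

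Fibroblasts were sorted from mouse skin after an operation on the back that every animal underwent. EXP mice received an expander hydrogel under the skin near the neck, a model in which the swelling gel stretches the skin, and CTRL mice were operated on in the same way without a gel. Strain, sex, age and genotype were not given in the sources used here. Sorting kept live cells positive for CD34 and PDGFRα and removed cells with CD31 (vessels), CD45 (blood), CD117 (melanocytes) or EpCAM (epithelium), so fibroblasts without CD34 or PDGFRα were not sampled. Tissue was taken on day 1 (4 CTRL and 5 EXP libraries), day 2 (3 and 3) and day 4 (4 and 3), 22 libraries in all. The labels number the libraries of a group but do not state that each came from its own animal, so p-values measure the spread between these libraries. They do not record a processing batch either, so day and a possible batch of that day cannot be told apart.

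TGF-beta is secreted in a latent complex that latent TGF-beta binding proteins (LTBPs) tether to the extracellular matrix, and it must be released before it can act. TGF-beta and activin bind paired type I and type II receptor kinases that activate SMAD2 and SMAD3, whereas BMPs act through their own receptors on SMAD1 and SMAD5, and both branches share SMAD4. In dermal fibroblasts the TGF-beta branch is known for driving matrix production and the contractile state, and BMP signals are known for inducing the Id genes.

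Levels are in CPM, for which each count was divided by the size of its library after a TMM correction for differences in composition. Library totals were 21461294 to 30210204 counts, so that 3 counts, the smallest level taken as detectable, were 0.0805 to 0.157 CPM. Fibroblast identity was checked on marker genes. Sums over a marker list are on unscaled library totals, whereas levels of single markers are in the TMM-scaled CPM. A single gene can therefore exceed the sum of its list. The 8 fibroblast markers summed to 53950 to 231500 CPM, and EXP lay below CTRL without overlap on each day. Most of this sum was Col1a1 and Col1a2, at most 134900 and 128100 CPM, against at most 27100 CPM for Dcn, the next in level. Both collagen genes also enter the collagen share below. Dpt and Thy1 were called on no day, Lum was lower on day 4 and Dcn on days 2 and 4. The sum of the 8 markers was 143500 to 182700 CPM in CTRL and 92030 to 119300 CPM in EXP on day 1. It was 211200 to 231500 and 61410 to 128200 CPM on day 2, and 172300 to 211500 and 53950 to 171600 CPM on day 4. The 8 blood cell markers, 5 of them tested, summed to 42.6 to 132.1 CPM, with 43.2 to 86.6 CPM in CTRL and 42.6 to 67.1 CPM in EXP on day 1, 101.5 to 131.9 and 83.6 to 110.1 CPM on day 2, and 93.03 to 124.3 and 93.7 to 132.1 CPM on day 4. Of these, Ptprc (CD45), Adgre1 and Itgam reached at most 0.243 CPM and were at 0 in 15 to 17 libraries. Csf1r, at 14.4 to 158.2 CPM, was lower in EXP on day 1 (log2 fold change -1.12, adjusted p 0.0174). Cd68, at most 24.9 CPM, was higher in EXP on day 1 (1.36, adjusted p 0.0208) and day 2 (1.86, adjusted p 0.0217), and Cd3e, at most 28.9 CPM, on day 4 (2.69, adjusted p 0.0115). S100a8, at most 4.74 CPM in EXP and 0.0522 CPM in CTRL, was higher on all 3 days (adjusted p 0.0131, 0.0165 and 0.00907), while Lyz2 was called on no day. Cd34 itself was lower in EXP on day 1 (log2 fold change -1.74, adjusted p 0.00081) and on day 2 (-2.07, adjusted p 0.00379), and Pdgfra was higher on all 3 days (0.84, 1.71 and 0.79). The 5 mature adipocyte markers (Adipoq, Plin1, Cidec, Cfd, Fabp4), all tested, summed to 57.4 to 462 CPM in day 4 EXP against 0.472 to 1.85 CPM in day 4 CTRL. They summed to 8.55 to 111 CPM in day 2 EXP against 0.200 to 2.80 CPM in CTRL, and to 0.963 to 9.80 CPM in day 1 EXP against 1.68 to 25.8 CPM in CTRL. Endothelial markers, 4 of 5 of them tested and with Cdh5 at 0 in 10 libraries, summed to 21.2 to 54.0 CPM in day 4 EXP against 3.53 to 7.89 CPM in day 4 CTRL. Most of this sum was Tek, at most 44.9 CPM in day 4 EXP and not called (log2 fold change 2.63, adjusted p 0.0563). Pecam1, at most 3.68 CPM there, was not called either (adjusted p 0.211). Kdr, at most 2.57 CPM (adjusted p 0.0179), and Emcn, at most 1.18 CPM (adjusted p 0.0394), were higher in EXP on day 4. Col3a1, Col1a1 and Col1a2 together took 19.8 to 30.7% of all counts in CTRL libraries and 6.95 to 24.2% in EXP libraries. The part of these marker and collagen differences in the results below was not tested. In bulk RNA, fewer cells of a kind and less RNA per cell cannot be told apart.

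Libraries also fell on either side of a gap that the groups do not explain. The mean log2 CPM of 192 genes that vary with Rnf10 after group means are removed (correlation above 0.9) left an empty interval from 4.13 to 4.83. On its high side lay 7 libraries, namely CTRL 1, 2 and 3 and EXP 1 and 2 of day 1 and CTRL 3 and 4 of day 4, while all day 2 libraries and all day 4 EXP libraries lay on the low side. Smad1 is itself 1 of the 192 genes (correlation 0.97 with Rnf10), and Smad3 (0.79), Inhbb (0.77) and Ltbp4 (0.75) moved with the split as well. Day 4 results on these 4 genes are therefore also given on the low side alone, where 2 CTRL and 3 EXP libraries remained. With the split as a covariate in edgeR, the day 4 calls of Tgfb1, Inhbb, Tgfbr1 and Fst were lost (Fst at 0.65, adjusted p 0.134). On day 1, with the 3 CTRL and 2 EXP libraries of the high side alone, 5 members and 2210 of 15942 genes were called. The calls of Gdf10, Tgfbr3, Smad2, Smad5, Smad7 and Skil were lost there.

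The pathway genes differed widely in abundance in mice without an expander. Per kilobase of the longest annotated transcript, and averaged over the 3 CTRL groups, the highest levels were those of Fstl1 (592 CPM per kb), a secreted follistatin-like glycoprotein, Id3 (420), a BMP target, and Tgfbi (385), a matrix protein induced by TGF-beta. Ltbp1 (171), Tgfbr2 (126) and Tgfbr3 (101) followed, and 24 of the 46 genes reached at least 10 CPM per kb. Of the TGF-beta ligands Tgfb3 was the most abundant per length (20.5 CPM per kb), followed by Tgfb2 (11.4) and Tgfb1 (2.17). Among the BMPs, Bmp4 (34.0 CPM per kb) and Bmp2 (20.2) stood far above Bmp5 (0.253) and Bmp6 (0.0605). The type I receptor Bmpr1b was the lowest member of all (0.0460 CPM per kb).

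**Figure D1:**
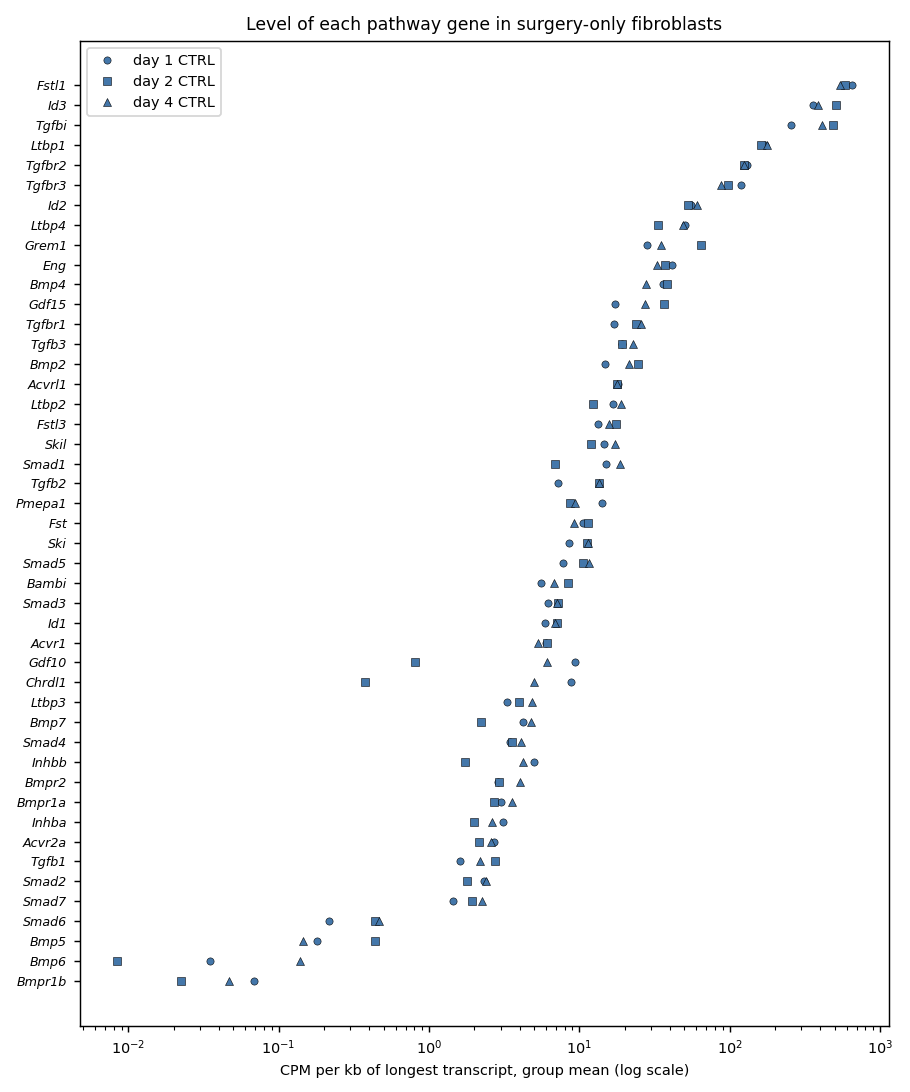
Level of each of the 46 pathway genes in fibroblasts of operated mice without an expander, in CPM per kilobase of the longest annotated transcript on a log axis, as the mean of the day 1, day 2 and day 4 CTRL libraries (3 symbols per gene). Genes are ordered by the average of the 3 means, from Fstl1 at 592 down to Bmpr1b at 0.0460 CPM per kb.

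Expansion was followed by calls among these genes in both directions on days 1 and 2 and mostly downward on day 4. Calls rest on an adjusted p under 0.05 in edgeR's quasi-likelihood test, with the Benjamini-Hochberg (BH) adjustment over all 17554 genes. On day 1, 5 of the 46 genes rose and 5 fell, 21.7% of the list against 28.6% of all genes tested (13.9% higher and 14.7% lower), a share below the background. On day 2, 8 rose and 8 fell, 34.8% against 13.4% of all genes (7.72% higher and 5.71% lower). On day 4, 4 rose and 16 fell, 43.5% against 22.5%, and the 34.8% that fell compare with 9.66% of all genes that did, the 8.70% that rose with 12.8%. The median log2 fold change over the 46 genes was -0.03, -0.16 and -0.60 on the 3 days, and 0.02, 0.02 and 0.03 over all genes. EXP and CTRL libraries did not overlap at all for 8, 22 and 23 members, which is 17.4%, 47.8% and 50.0% of the list, against 23.9%, 39.3% and 25.5% of all genes.

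Direction depended on scaling for part of this balance. On plain library totals the all-gene median log2 fold change moved to 0.21, 0.49 and 0.36, and the share of called genes that were higher went from 48.7%, 57.5% and 57.0% to 66.2%, 90.5% and 80.8%. The members then split into 8 higher and 5 lower on day 1, 10 and 3 on day 2, and 5 and 11 on day 4. Over all 17554 genes, 5129, 4632 and 5289 were called on plain library totals, against 5017, 2359 and 3943 with TMM. The excess of member calls over the background thus depended on scaling as well, on day 2 and, for both directions together, on day 4. Falls still outnumbered rises among the members on day 4 (11 against 5), where 80.8% of all called genes were higher. No called member changed sign under any scaling tried. Calls lost on plain library totals were those of Tgfb2, Bmp4, Gdf15, Smad3 and Ski on day 2 and of Tgfb1, Tgfb3, Tgfbr1, Ski and Tgfbi on day 4.

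In all, 29 members were called on at least 1 day and 17 on none. The shares of all genes called on at least 1 day, or on 2 or 3 days, were not computed. Bmp4 (lower) and Fst (higher) were called in 1 direction on all 3 days, which 4.27% of all genes did, and Tgfb3 was called on all 3 days in opposite directions. Of the 14 members called on 2 or 3 days, 5 were higher, 8 were lower and 1, Tgfb3, was both.

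**Figure D2:**
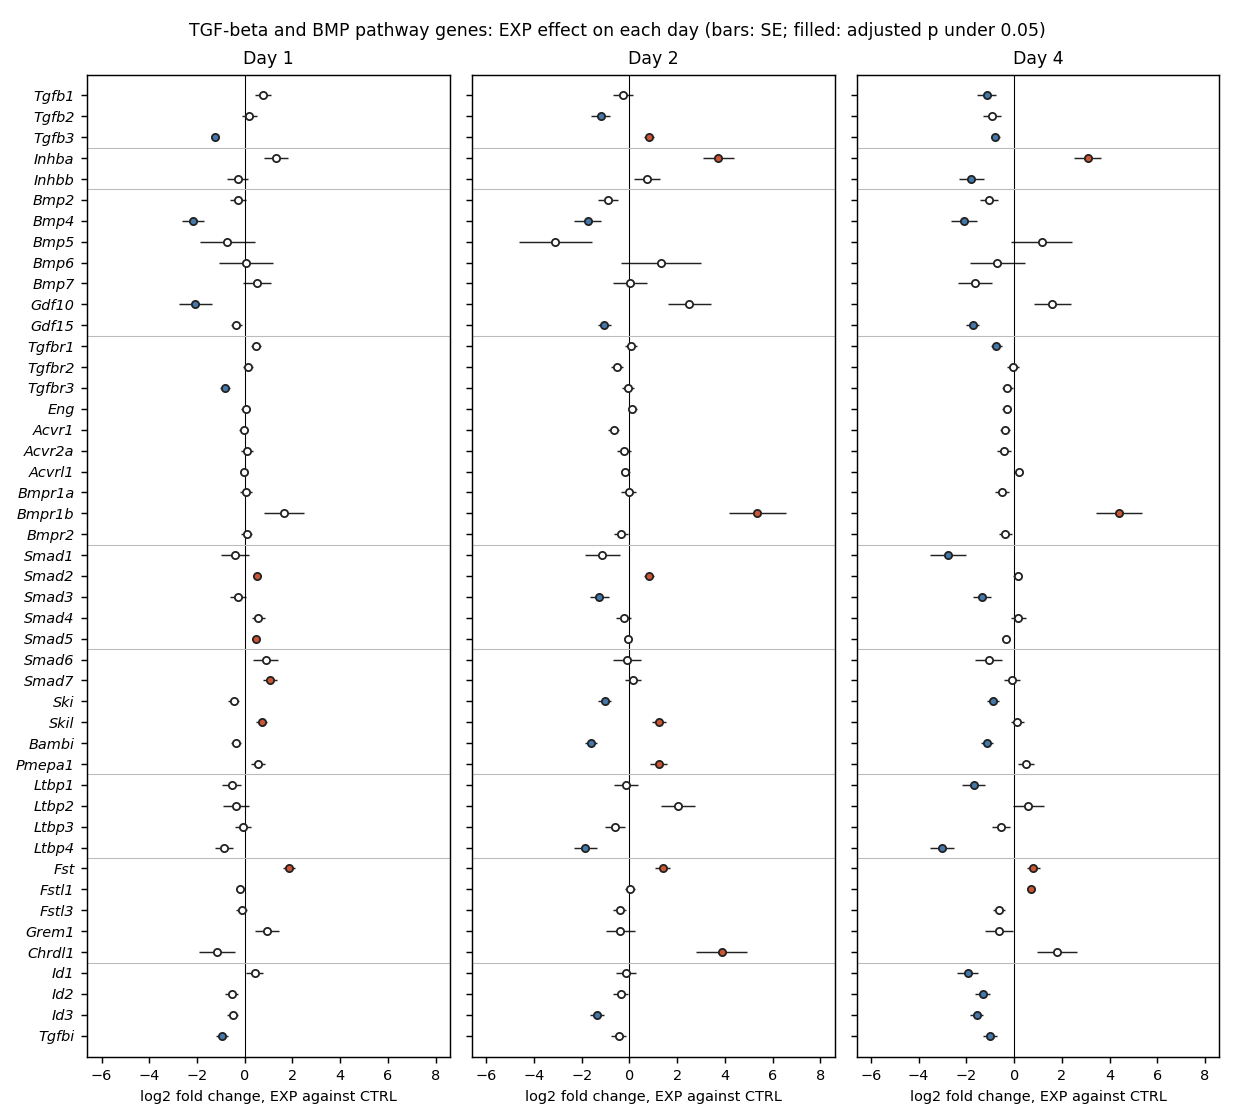
Log2 fold change of EXP against CTRL for all 46 genes on day 1, day 2 and day 4 (3 panels), grouped by role from ligands at the top to targets at the bottom. Points are edgeR estimates, bars their SE, and filled points have an adjusted p under 0.05 (red higher, blue lower). Filled points number 10, 16 and 20, and on day 4 16 of the 20 lie to the left of 0.

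Among the TGF-beta ligands, the transcript of Tgfb3 turned from low on day 1 to high on day 2 and low again on day 4. Tgfb3 (ENSMUSG00000021253) encodes the isoform known for its part in palate fusion and in wounds. Its levels in day 1 CTRL libraries, in order of replicate number as everywhere below, were 64.9, 68.9, 60.3 and 67.1 CPM, and in day 1 EXP libraries 27.7, 21.2, 26.6, 29.6 and 30.7 CPM. Tgfb3 fell 2.40-fold on day 1, a log2 fold change of -1.26 (SE 0.17, BH-adjusted p 2.55e-05), with every EXP library below every CTRL library. By day 2 the order had turned over. CTRL libraries held 60.8, 58.9 and 76.5 CPM and EXP libraries 160.3, 99.2 and 83.99 CPM, a rise of 1.75-fold with a log2 fold change of 0.81 (SE 0.20, BH-adjusted p 0.0125) and again no overlap. The day 2 call was lost without any 1 of CTRL 1, CTRL 2 or EXP 1, with leave-one-out values of 0.49 to 0.98. On day 4 Tgfb3 was at 93.02, 67.4, 75.7 and 71.2 CPM in CTRL and 42.2, 39.9 and 51.8 CPM in EXP, a fall of 1.72-fold and a log2 fold change of -0.79 (SE 0.19, BH-adjusted p 0.00815). Over the 3 days CTRL libraries lay between 58.9 and 93.0 CPM and EXP libraries between 21.2 and 160.3 CPM. In the gene model used here exons of Tgfb3 overlap antisense genes, from which its reads cannot be told apart without strand.

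The other TGF-beta isoforms were called once each, both downward. Tgfb1, the isoform best known from fibrosis, ranged over 0.868 to 9.71 CPM and fell on day 4 (log2 fold change -1.16, SE 0.40, BH-adjusted p 0.041), after values of 0.78 and -0.28 on days 1 and 2 that did not pass. Its day 4 call was lost without any 1 of CTRL 1, CTRL 4, EXP 1 or EXP 2, with leave-one-out values of -1.60 to -0.77. Of 10 other alternatives, 3 gave this call. Tgfb2 ranged over 13.1 to 89.3 CPM and fell on day 2 (log2 fold change -1.20, SE 0.39, BH-adjusted p 0.0479). This call had the largest adjusted p of that day and was lost without any 1 of CTRL 1, CTRL 2, CTRL 3, EXP 1 or EXP 3, with leave-one-out values of -1.81 to -0.83.

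Inhba, which encodes the subunit of activin A, had the largest rise of any ligand. Activin A signals through SMAD2 and SMAD3 like TGF-beta. Inhba (ENSMUSG00000041324) was at 9.96, 12.5 and 15.8 CPM in day 2 CTRL libraries and 233, 66.5 and 209 CPM in day 2 EXP libraries. That is 13.3-fold higher (log2 fold change 3.73, SE 0.66, BH-adjusted p 0.00134), and the lowest EXP library lay above the highest CTRL library. On day 4 the CTRL libraries held 9.92, 17.6, 25.6 and 13.9 CPM and the EXP libraries 287, 37.2 and 103 CPM, which was 8.50-fold higher (log2 fold change 3.09, SE 0.57, BH-adjusted p 0.00164). EXP libraries spread widely on day 4, yet all 3 lay above CTRL, and values with each library left out ran from 2.07 to 3.51. On day 1 the log2 fold change of 1.31 (SE 0.50, BH-adjusted p 0.0563) did not pass, with CTRL at 14.5, 16.9, 24.8 and 22.99 CPM and EXP at 43.2, 19.8, 37.7, 59.3 and 85.3 CPM, overlapping only through EXP 2.

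Inhbb, the subunit of activin B, did not follow Inhba. Its levels ranged over 3.99 to 34.5 CPM, and it fell on day 4 (log2 fold change -1.80, SE 0.53, BH-adjusted p 0.0218), although CTRL (4.74 to 34.5 CPM) and EXP (3.99 to 6.61 CPM) libraries overlapped. The high CTRL values belonged to the high-side libraries CTRL 3 and 4, and on the low side alone the log2 fold change was -0.44 with an adjusted p of 0.586. The call was also lost without any 1 of CTRL 3, CTRL 4, EXP 1 or EXP 2, with leave-one-out values of -2.11 to -1.26.

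Bmp4 was the one BMP ligand called lower on every day. Bmp4 (ENSMUSG00000021835) is secreted by dermal fibroblasts and is a main activator of SMAD1 and SMAD5. On day 1 its CTRL libraries held 67.8, 96.4, 55.6 and 78.4 CPM and its EXP libraries 21.6, 10.8, 12.4, 17.6 and 20.4 CPM, a fall of 4.50-fold (log2 fold change -2.17, SE 0.45, BH-adjusted p 0.0016). On day 2 the values were 73.04, 86.3 and 76.7 CPM and 12.9, 41.1 and 16.3 CPM (log2 fold change -1.75, SE 0.56, BH-adjusted p 0.0431). On day 4 they were 62.1, 54.4, 63.4 and 49.6 CPM and 2.42, 8.85 and 29.1 CPM (log2 fold change -2.10, SE 0.55, BH-adjusted p 0.0117). The 11 CTRL libraries lay between 49.6 and 96.4 CPM and the 11 EXP libraries between 2.42 and 41.1 CPM, with no overlap on any day. The day 2 call was lost without any 1 of CTRL 1, CTRL 2, CTRL 3, EXP 1 or EXP 3, with leave-one-out values of -2.44 to -1.45, and the day 4 call without EXP 2, where the log2 fold change ran from -3.33 to -1.59 over the libraries left out. The fit of day 4 alone gave -2.11 with an adjusted p of 0.0876. Bmp4 showed no detectable difference of effect between days (adjusted p 0.906). Exons of Bmp4 overlap an antisense gene in the annotation used.

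**Figure D3:**
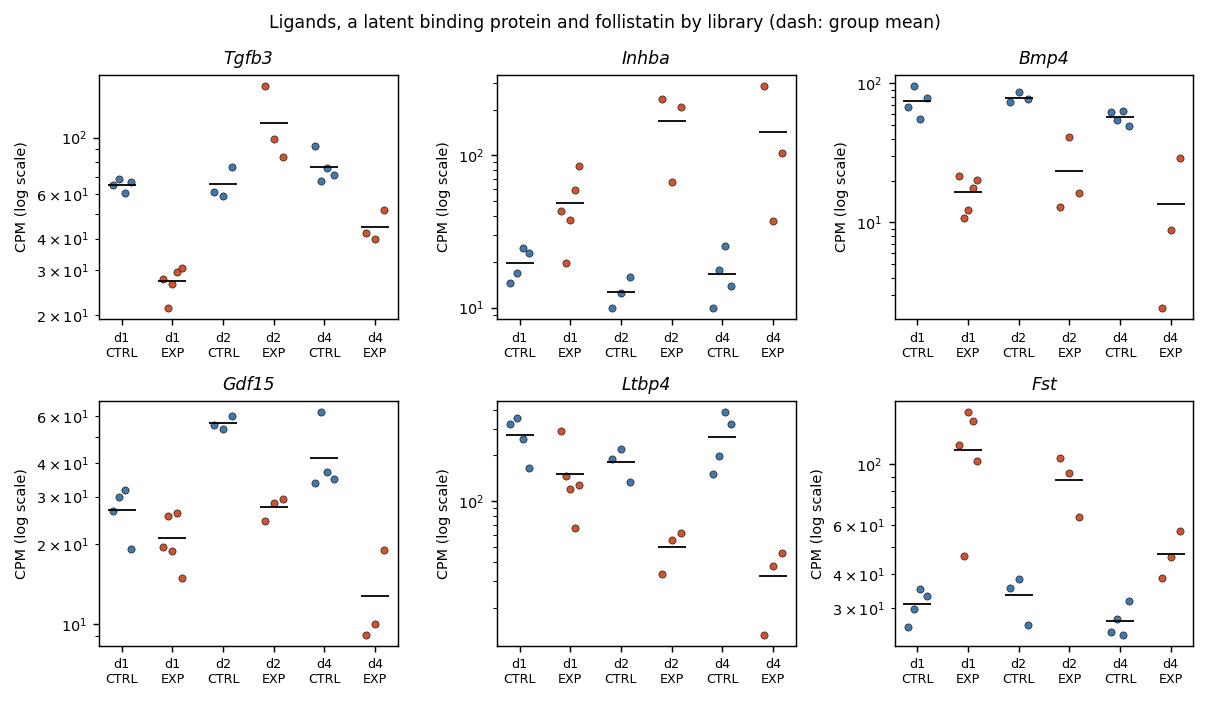
CPM of 6 pathway genes (Tgfb3, Inhba, Bmp4, Gdf15, Ltbp4, Fst) in each of the 22 libraries, by day and arm, on log axes. Points are libraries (blue CTRL, red EXP) and dashes group means. Tgfb3 changes sides between days, Inhba and Fst lie higher in EXP, and Bmp4 lies between 2.42 and 41.1 CPM in EXP against 49.6 to 96.4 CPM in CTRL.

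Gdf15, a stress-induced ligand that acts at a distance on a receptor of the brainstem, fell on days 2 and 4. Gdf15 (ENSMUSG00000038508) was at 55.8, 53.9 and 59.9 CPM in day 2 CTRL and 24.3, 28.4 and 29.3 CPM in day 2 EXP (log2 fold change -1.05, SE 0.28, BH-adjusted p 0.0165). On day 4 it was at 33.8, 62.2, 36.97 and 35.02 CPM in CTRL, with CTRL 2 far above the others, and 9.15, 10.03 and 18.9 CPM in EXP, a fall of 3.31-fold (log2 fold change -1.73, SE 0.27, BH-adjusted p 0.000433). Libraries did not overlap on either day. The day 2 call was lost without EXP 1, with leave-one-out values of -1.11 to -0.96. On plain library totals the day 2 log2 fold change was -0.58, also without a call. On day 1 Gdf15 libraries overlapped, at 26.5, 29.8, 31.8 and 19.1 CPM in CTRL and 19.5, 25.5, 18.7, 26.1 and 14.9 CPM in EXP (log2 fold change -0.36, SE 0.23, BH-adjusted p 0.254).

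Gdf10, also called BMP3b, fell on day 1, with 1 EXP library apart from the others. Gdf10 (ENSMUSG00000021943) stood at 55.8, 25.1, 67.2 and 45.6 CPM in day 1 CTRL and 6.46, 42.2, 5.63, 1.85 and 1.20 CPM in day 1 EXP, so that EXP 2 overlapped CTRL and the other 4 did not. It fell with a log2 fold change of -2.08 (SE 0.69, BH-adjusted p 0.03), and the call was lost without any 1 of CTRL 1, CTRL 3, EXP 1, EXP 3 or EXP 4, with leave-one-out values of -3.68 to -1.79. On day 2 Gdf10 was at 3.44, 6.11 and 3.01 CPM in CTRL and 20.3, 25.03 and 26.2 CPM in EXP, a log2 fold change of 2.51 (SE 0.90, BH-adjusted p 0.0697) that did not pass although no libraries overlapped. On day 4 the values were 41.99, 17.2, 32.3 and 36.4 CPM in CTRL and 72.9, 152 and 66.9 CPM in EXP (log2 fold change 1.60, SE 0.77, BH-adjusted p 0.141), again without overlap and without a call.

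The remaining BMP ligands were called on no day. Bmp2 ranged over 19.2 to 108 CPM and had log2 fold changes of -0.28, -0.89 and -1.06 (SE 0.39, BH-adjusted p 0.0536) on the 3 days. Bmp7 ranged over 0.885 to 46.3 CPM, with values of 0.52, 0.02 and -1.63 (SE 0.71, BH-adjusted p 0.105). Bmp5 and Bmp6 lay at or near the 3-count floor in many libraries. Bmp5 was at 1.30 to 2.04 CPM in day 2 CTRL and 0 to 0.455 CPM in day 2 EXP, without overlap, and its log2 fold change of -3.11 (SE 1.53, BH-adjusted p 0.191) did not pass. Bmp6 stayed at or below 0.456 CPM in every library but day 4 CTRL 3, at 1.76 CPM, so no difference was detectable at this depth.

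Receptor transcripts moved less than most of the other roles. Calls were made for 1, 1 and 2 of the 10 receptors (10, 10 and 20%), against 28.6%, 13.4% and 22.5% of all genes, near the background on days 2 and 4. The median size of the log2 fold change over the 10 receptors was 0.08 on day 1, 0.20 on day 2 and 0.37 on day 4, against 0.55, 0.48 and 0.55 over all genes. Only the signalling SMADs had a smaller median size on any day, 0.34 on day 4. Tgfbr2, the type II receptor that binds TGF-beta, was at 536 to 1396 CPM and had log2 fold changes of 0.14, -0.54 and -0.05. Also uncalled were the BMP type II receptor Bmpr2 (24.8 to 70.8 CPM), the BMP type I receptors Bmpr1a (11.6 to 33.9 CPM) and Acvr1 (10.6 to 29.8 CPM), the activin receptor Acvr2a (5.51 to 21.8 CPM), and Acvrl1 (49.7 to 82.8 CPM) and Eng (85.3 to 202 CPM), which are best known from endothelium. Among these 7 the value furthest from 0 was that of Acvr1 on day 2, -0.67 (SE 0.23, BH-adjusted p 0.0647).

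The type I receptor Tgfbr1, the kinase partner of Tgfbr2, fell on day 4. Tgfbr1 (ENSMUSG00000007613) held 142, 173, 131 and 144 CPM in CTRL and 81.5, 60.7 and 122 CPM in EXP, without overlap (log2 fold change -0.75, SE 0.24, BH-adjusted p 0.0317). On day 1 it was at 89.97, 123, 90.4 and 89.8 CPM in CTRL and 152, 132, 81.6, 141 and 168 CPM in EXP (log2 fold change 0.46, SE 0.21, BH-adjusted p 0.11), and on day 2 at 155, 97.2 and 158 and 145, 155 and 125 CPM (log2 fold change 0.05). The day 4 call was lost without any 1 of CTRL 2, CTRL 4, EXP 1 or EXP 2, with leave-one-out values of -1.04 to -0.56. Of 10 other alternatives, 5 gave this call.

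Tgfbr3 (betaglycan), a coreceptor that presents TGF-beta and binds inhibin, fell on day 1. Tgfbr3 (ENSMUSG00000029287) was at 693, 925, 509 and 755 CPM in CTRL and 486, 402, 275, 420.4 and 447 CPM in EXP, 1.77-fold lower without overlap (log2 fold change -0.83, SE 0.20, BH-adjusted p 0.0041). On day 2 libraries overlapped at 727, 433 and 616 CPM in CTRL and 584, 479.9 and 650.0 CPM in EXP (log2 fold change -0.05). On day 4 they overlapped at 604, 504, 603 and 422 and 538, 357 and 414 CPM (log2 fold change -0.29). Exons of Tgfbr3 overlap another gene on the same strand in the annotation used.

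Bmpr1b, a BMP type I receptor known from cartilage and bone precursors, went from near the floor to measurable levels. It was at 0, 0 and 0.359 CPM in day 2 CTRL and 9.77, 2.87 and 3.45 CPM in day 2 EXP (log2 fold change 5.36, SE 1.19, BH-adjusted p 0.00592). Day 4 values were 0.532, 0.172, 0 and 0.303 CPM in CTRL and 12.5, 2.08 and 1.29 CPM in EXP (log2 fold change 4.40, SE 0.97, BH-adjusted p 0.00441). Libraries did not overlap on these days, and on day 1 they did not either, at 0.0824, 0.127, 0.680 and 0.575 CPM in CTRL and 1.89, 1.45, 0.872, 0.923 and 0.802 CPM in EXP, but the test did not pass (log2 fold change 1.66, SE 0.84, BH-adjusted p 0.146). With so few CTRL counts the size is poorly fixed. It ran from 4.60 to 10.12 on day 2 as single libraries were left out, and from 2.75 to 5.03 on day 4, where the call was lost without EXP 1.

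The SMADs of the TGF-beta and activin branch were called in opposite directions on day 2, Smad2 upward and Smad3 downward. Smad2 (ENSMUSG00000024563) was at 21.2, 18.7, 20.5 and 15.1 CPM in day 1 CTRL and 28.2, 22.9, 30.6, 25.6 and 25.5 CPM in day 1 EXP, and rose 1.41-fold (log2 fold change 0.49, SE 0.17, BH-adjusted p 0.0284). On day 2 it held 13.8, 12.7 and 16.6 CPM in CTRL and 25.3, 21.2 and 29.2 CPM in EXP, a rise of 1.75-fold (log2 fold change 0.81, SE 0.20, BH-adjusted p 0.011). No libraries overlapped on days 1 and 2. On day 4 Smad2 libraries overlapped, at 15.7, 21.2, 23.1 and 16.9 CPM in CTRL and 22.6, 16.3 and 24.9 CPM in EXP (log2 fold change 0.14). The day 1 call was lost without any 1 of CTRL 2, CTRL 4 or EXP 3, with leave-one-out values of 0.40 to 0.56. The day 2 call was lost without CTRL 2 or EXP 3, with leave-one-out values of 0.68 to 0.92.

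Smad3 fell on days 2 and 4. Smad3 (ENSMUSG00000032402) held 50.1, 33.3 and 26.5 CPM in day 2 CTRL and 8.15, 17.8 and 20.1 CPM in day 2 EXP, without overlap (log2 fold change -1.25, SE 0.40, BH-adjusted p 0.0418). Smad3 on day 4 held 26.8, 29.9, 41.1 and 47.6 CPM in CTRL and 11.6, 11.6 and 19.9 CPM in EXP, also without overlap (log2 fold change -1.34, SE 0.38, BH-adjusted p 0.0177). On day 1 its libraries overlapped at 44.1, 28.1, 34.5 and 19.7 CPM in CTRL and 35.1, 41.2, 19.1, 15.2 and 19.98 CPM in EXP (log2 fold change -0.28). Smad3's day 2 call was lost without any 1 of CTRL 1, CTRL 2, EXP 1 or EXP 2, with leave-one-out values of -1.51 to -0.95. The day 4 call was lost without EXP 1 or EXP 2, and in low-side libraries the log2 fold change was -0.98 with an adjusted p of 0.194, the 2 low CTRL libraries at 26.8 and 29.9 CPM lying above all 3 EXP libraries.

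Of the BMP-branch SMADs, Smad1 had the largest fall of any SMAD, in libraries that also differ by the split. Smad1 (ENSMUSG00000031681) was at 18.6, 26.6, 97.5 and 138.5 CPM in day 4 CTRL and 7.65, 10.7 and 12.4 CPM in day 4 EXP, without overlap (log2 fold change -2.78, SE 0.76, BH-adjusted p 0.015). CTRL 1 and 2, the low-side libraries, held 18.6 and 26.6 CPM, and CTRL 3 and 4, the high-side ones, 97.5 and 138.5 CPM. On the low side alone the log2 fold change was -1.15 (adjusted p 0.166), with the split as a covariate -1.29 (adjusted p 0.0167), and in the fit of day 4 alone -2.82 (adjusted p 0.0524). The call was also lost without EXP 1 or EXP 2, with leave-one-out values of -3.10 to -2.22. On day 1, where both arms span the split, Smad1 was at 67.3, 94.2, 48.6 and 18.6 CPM in CTRL and 98.9, 58.01, 29.6, 13.3 and 15.5 CPM in EXP (log2 fold change -0.41). On day 2 the values were 33.6, 26.7 and 17.8 CPM in CTRL and 7.92, 15.9 and 11.9 CPM in EXP (log2 fold change -1.13, SE 0.75, BH-adjusted p 0.345), without overlap and without a call.

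**Figure D4:**
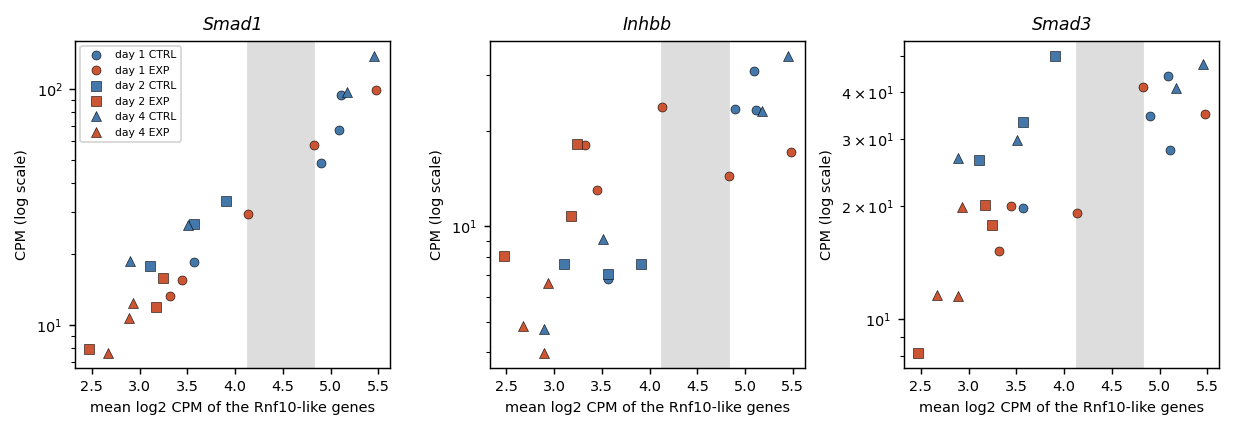
CPM (log axis) of Smad1, Inhbb and Smad3 in the 22 libraries against the mean log2 CPM of the 192 Rnf10-like genes that divide the libraries, with the empty interval from 4.13 to 4.83 in grey. Symbols mark the day and colours the arm (blue CTRL, red EXP). Smad1 rises along the axis in both arms, and the day 4 EXP libraries all lie to the left of the gap while day 4 CTRL libraries lie on both sides.

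Smad5, the other BMP-branch SMAD in the list, ranged over 46.3 to 83.5 CPM and rose on day 1 (log2 fold change 0.46, SE 0.15, BH-adjusted p 0.0219). That call was lost without any 1 of CTRL 3, CTRL 4 or EXP 5, with leave-one-out values of 0.42 to 0.56. Smad4, the partner shared by both branches, ranged over 7.84 to 30.2 CPM and was called on no day, with log2 fold changes of 0.58 (SE 0.27, BH-adjusted p 0.119), -0.25 and 0.17.

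Feedback inhibitors and corepressors moved in both directions. Ski and Skil encode related corepressors that block SMAD2 and SMAD3 on DNA, and on day 2 their transcripts were called in opposite directions. Skil (ENSMUSG00000027660) was at 86.6, 50.6 and 103 CPM in day 2 CTRL and 215, 196 and 157 CPM in day 2 EXP, 2.36-fold higher without overlap (log2 fold change 1.24, SE 0.29, BH-adjusted p 0.0075). It rose on day 1 too, at 84.7, 137, 92.1 and 80.1 CPM in CTRL and 235, 96.95, 118, 184 and 174 CPM in EXP (log2 fold change 0.71, SE 0.24, BH-adjusted p 0.028), although EXP 2 and EXP 3 lay within the CTRL range. The day 1 call was lost without any 1 of CTRL 1, CTRL 3, CTRL 4, EXP 1 or EXP 5, with leave-one-out values of 0.57 to 0.92. On day 4 Skil was at 113, 123, 109 and 119 CPM in CTRL and 139, 103 and 140.2 CPM in EXP (log2 fold change 0.13).

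Ski (ENSMUSG00000029050) held 55.2, 71.2 and 59.9 CPM in day 2 CTRL and 25.6, 38.6 and 26.3 CPM in day 2 EXP, and fell 2.06-fold (log2 fold change -1.04, SE 0.27, BH-adjusted p 0.0128). It fell again on day 4, from 53.2, 64.6, 70.2 and 64.2 CPM in CTRL to 30.4, 39.5 and 32.2 CPM in EXP (log2 fold change -0.89, SE 0.25, BH-adjusted p 0.0159). No libraries overlapped on days 2 and 4. On day 1 they did, at 57.2, 38.6, 36.6 and 55.99 CPM in CTRL and 28.4, 18.5, 47.3, 38.3 and 37.5 CPM in EXP (log2 fold change -0.47). Ski's day 2 call was lost without any 1 of CTRL 2, EXP 1 or EXP 3, with leave-one-out values of -1.27 to -0.93, and the day 4 call was lost without EXP 1, with leave-one-out values of -1.03 to -0.81.

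Bambi, a decoy receptor without a kinase that dampens both branches, fell on days 2 and 4. Bambi (ENSMUSG00000024232) was at 46.2, 37.6 and 43.8 CPM in day 2 CTRL and 9.54, 16.5 and 15.6 CPM in day 2 EXP, 3.06-fold lower (log2 fold change -1.61, SE 0.26, BH-adjusted p 0.000715). Bambi on day 4 held 41.9, 43.5, 27.2 and 26.02 CPM in CTRL and 16.5, 10.4 and 19.96 CPM in EXP (log2 fold change -1.15, SE 0.25, BH-adjusted p 0.0036). Libraries did not overlap on these days, and both calls held whichever library was left out. On day 1 they overlapped at 22.6, 32.8, 27.4 and 30.7 CPM in CTRL and 25.02, 18.6, 26.3, 18.6 and 21.8 CPM in EXP (log2 fold change -0.36).

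Pmepa1, a TGF-beta-induced membrane protein that traps SMAD2 and SMAD3, rose on day 2. Pmepa1 (ENSMUSG00000038400) held 42.5, 30.8 and 44.3 CPM in CTRL and 115, 93.4 and 66.5 CPM in EXP, without overlap (log2 fold change 1.22, SE 0.35, BH-adjusted p 0.0249). That call was lost without any 1 of CTRL 1, CTRL 2, CTRL 3, EXP 1 or EXP 2, with leave-one-out values of 1.03 to 1.40. On day 1 it was at 49.7, 58.4, 48.3 and 99.9 CPM in CTRL and 88.2, 45.97, 107, 111 and 121 CPM in EXP (log2 fold change 0.56), and on day 4 at 26.2, 29.8, 52.2 and 60.5 and 64.1, 61.6 and 53.5 CPM (log2 fold change 0.50). Smad7, an inhibitory SMAD that recruits ubiquitin ligases to the receptor, ranged over 5.47 to 22.6 CPM and rose 2.08-fold on day 1 (log2 fold change 1.06, SE 0.30, BH-adjusted p 0.0112), with day 1 libraries overlapping only through EXP 2. Smad6, its BMP-branch counterpart, stayed at 0.268 to 2.42 CPM and was called on no day (log2 fold changes 0.87, -0.11 and -1.07).

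Among the latent binding proteins, Ltbp4 fell on days 2 and 4 and Ltbp1 on day 4. Ltbp4 links latent TGF-beta to elastic fibres and is needed for their assembly. Ltbp4 (ENSMUSG00000040488) was at 188, 220.3 and 134 CPM in day 2 CTRL and 33.4, 55.6 and 62.3 CPM in day 2 EXP, 3.59-fold lower (log2 fold change -1.84, SE 0.49, BH-adjusted p 0.017). Ltbp4 on day 4 held 151, 199, 386 and 321 CPM in CTRL and 13.3, 37.7 and 45.9 CPM in EXP, 8.18-fold lower (log2 fold change -3.03, SE 0.50, BH-adjusted p 0.000666), the largest fall of any member on that day. Libraries did not overlap on either day. On day 1 they did, at 322, 349.5, 255 and 166 CPM in CTRL and 289.6, 146, 121, 66.4 and 128 CPM in EXP (log2 fold change -0.86, SE 0.39, BH-adjusted p 0.103). Ltbp4's day 2 call was lost without CTRL 2 or EXP 1, with leave-one-out values of -2.04 to -1.61. In low-side libraries the day 4 log2 fold change was -2.44 (adjusted p 0.143), and the 2 low CTRL libraries, at 151.0 and 198.8 CPM, lay above all 3 EXP libraries.

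Ltbp1, which tethers latent TGF-beta to fibrillin and fibronectin, fell on day 4 in EXP libraries that lay far apart from each other. Ltbp1 (ENSMUSG00000001870) was at 1282, 1128, 1418 and 919.7 CPM in day 4 CTRL and 88.1, 247 and 764 CPM in day 4 EXP, without overlap (log2 fold change -1.70, SE 0.48, BH-adjusted p 0.0171). The call was lost without EXP 1 or EXP 2, with leave-one-out values of -2.80 to -1.23. In the other comparisons libraries overlapped, at 918, 1609, 931 and 1145 CPM in day 1 CTRL, 1206, 449, 581, 747 and 965 CPM in day 1 EXP, 1166, 778 and 1290.0 CPM in day 2 CTRL and 937, 1117 and 878 CPM in day 2 EXP (log2 fold changes -0.54 and -0.14). Ltbp2, which does not bind latent TGF-beta, ranged over 24.6 to 631 CPM and was called on no day. On day 2 it was higher in all 3 EXP libraries (182 to 631 against 53.02 to 132 CPM), with a log2 fold change of 2.03 (SE 0.71, BH-adjusted p 0.0652). Ltbp3 ranged over 9.37 to 36.7 CPM and was uncalled on all days (log2 fold changes -0.09, -0.61 and -0.56).

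Follistatin (Fst), a secreted protein that binds and neutralises activin, rose on all 3 days. Fst (ENSMUSG00000021765) was at 25.8, 29.9, 35.4 and 33.2 CPM in day 1 CTRL and 117, 46.5, 154, 143 and 103 CPM in day 1 EXP, 3.62-fold higher (log2 fold change 1.86, SE 0.26, BH-adjusted p 3.7e-05). On day 2 it was at 35.6, 38.5 and 26.2 CPM in CTRL and 105, 92.5 and 64.5 CPM in EXP, 2.61-fold higher (log2 fold change 1.39, SE 0.30, BH-adjusted p 0.00503). Day 4 levels were 24.6, 27.5, 24.1 and 31.99 CPM in CTRL and 38.6, 45.9 and 57.4 CPM in EXP, 1.75-fold higher (log2 fold change 0.80, SE 0.28, BH-adjusted p 0.0408). All 11 EXP libraries lay above the CTRL libraries of their day. The day 1 and day 2 calls held whichever library was left out, while the day 4 call was lost without any 1 of CTRL 1, CTRL 2, CTRL 3, EXP 1, EXP 2 or EXP 3, with leave-one-out values of 0.66 to 0.93. Of 10 other alternatives, 6 gave the day 4 call. The effect on Fst did not differ detectably between days (adjusted p 0.157). Exons of Fst overlap an antisense gene in the annotation used.

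Fstl1, the most abundant member, rose on day 4. Fstl1 (ENSMUSG00000022816) held 2125, 1995, 1888 and 2190.0 CPM in CTRL and 2983, 4494 and 2556 CPM in EXP, 1.63-fold higher without overlap (log2 fold change 0.71, SE 0.18, BH-adjusted p 0.0111). The call was lost without EXP 2, the library with 4494 CPM, with leave-one-out values of 0.42 to 0.89. Earlier its libraries overlapped, at 2443, 2419, 2334 and 2671 CPM in day 1 CTRL, 1939, 2745, 2407, 1689 and 1957 CPM in day 1 EXP, 2228, 2310.0 and 2097 CPM in day 2 CTRL and 2399, 2186 and 2192 CPM in day 2 EXP (log2 fold changes -0.20 and 0.03). Fstl3, another activin-binding protein, ranged over 14.1 to 41.1 CPM and was uncalled, with a log2 fold change of -0.65 (SE 0.25, BH-adjusted p 0.0671) on day 4.

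Chrdl1, a chordin-like protein that binds BMP4, rose on day 2. Chrdl1 (ENSMUSG00000031283) was at 1.59, 2.09 and 0.944 CPM in day 2 CTRL and 16.7, 16.1 and 34.7 CPM in day 2 EXP, 14.6-fold higher without overlap (log2 fold change 3.87, SE 1.07, BH-adjusted p 0.022). Day 2 CTRL levels lay below those of the other CTRL groups, which held 42.2, 21.3, 51.2 and 30.3 CPM on day 1 and 38.5, 8.11, 16.3 and 19.4 CPM on day 4. EXP held 10.4, 54.1, 13.4, 1.75 and 0.656 CPM on day 1 and 53.2, 90.5 and 70.8 CPM on day 4. Log2 fold changes were -1.18 (SE 0.75, BH-adjusted p 0.255) on day 1 and 1.80 (SE 0.85, BH-adjusted p 0.136) on day 4, and neither passed. Chrdl1's day 2 call was lost without any 1 of CTRL 1, CTRL 2, CTRL 3, EXP 1 or EXP 3, with leave-one-out values of 3.40 to 4.14. Grem1, a BMP antagonist, ranged over 25.01 to 316 CPM and was called on no day. On day 4 Grem1 was at 25.01, 30.2 and 226 CPM in EXP against 120.5 to 180.1 CPM in CTRL, with EXP 3 above and the other 2 below all CTRL libraries.

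All 4 target genes fell on day 4, where 9.66% of all genes did. The promoters are shown of the 3 of them with an entry in the table used, and of Inhba, the ligand with the largest rise. The sequences are the 250 bases before the start site from RefSeq (GRCm38.p6), 5′ to 3′, in which 32 of the 46 members had an entry. Capitals mark CAGAC, a SMAD-binding motif, on either strand (GTCTG on the other), and GGCGCC, a palindromic motif bound by SMAD1 and SMAD5 in BMP targets. The sequences follow.
Id2 (chr12:25096093-25096342, minus strand): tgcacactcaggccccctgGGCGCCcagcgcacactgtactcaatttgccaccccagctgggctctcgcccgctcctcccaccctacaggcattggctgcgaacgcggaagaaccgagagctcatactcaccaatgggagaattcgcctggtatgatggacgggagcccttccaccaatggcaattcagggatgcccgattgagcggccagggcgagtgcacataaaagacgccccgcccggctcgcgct
Id3 (chr4:136143572-136143821, plus strand): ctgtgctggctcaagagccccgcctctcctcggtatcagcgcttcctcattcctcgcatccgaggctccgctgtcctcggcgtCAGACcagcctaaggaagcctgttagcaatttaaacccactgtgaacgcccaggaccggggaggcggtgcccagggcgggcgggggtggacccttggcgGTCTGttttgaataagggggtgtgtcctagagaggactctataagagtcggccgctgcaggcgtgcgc
Tgfbi (chr13:56609336-56609585, plus strand): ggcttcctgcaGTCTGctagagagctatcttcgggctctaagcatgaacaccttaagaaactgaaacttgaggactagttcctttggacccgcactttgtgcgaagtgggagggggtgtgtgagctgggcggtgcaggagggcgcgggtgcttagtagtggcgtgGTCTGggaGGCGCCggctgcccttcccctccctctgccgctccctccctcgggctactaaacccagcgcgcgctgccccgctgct
Inhba (chr13:16011601-16011850, plus strand): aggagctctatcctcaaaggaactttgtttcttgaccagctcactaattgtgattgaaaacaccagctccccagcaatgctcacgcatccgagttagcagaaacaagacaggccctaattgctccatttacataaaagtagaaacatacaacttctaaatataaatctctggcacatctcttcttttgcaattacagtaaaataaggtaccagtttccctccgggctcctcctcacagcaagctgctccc
The Id2 window held GGCGCC 231 bases before the start. In Id3, CAGAC stood 167 bases and GTCTG 68 bases before the start. In Tgfbi, GTCTG stood 239 and 85 bases and GGCGCC 77 bases before the start, and the Inhba window held neither motif. CAGAC occurred in 42.2% of all 32817 windows of this length and in 21 of 41 member windows (51.2%). GGCGCC occurred in 9.59% of all windows and in 10 of 41 member windows (24.4%). The 2 motifs share no overlapping match in the windows shown. Some genes have several start sites and so several windows. These matches describe the letters in the window and were not tied to any change in level.

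Id1, Id2 and Id3 encode inhibitors of helix-loop-helix transcription factors and are classic direct targets of BMP signals. Id3 (ENSMUSG00000007872) was at 628, 698 and 626 CPM in day 2 CTRL and 184, 352 and 226 CPM in day 2 EXP, 2.56-fold lower (log2 fold change -1.36, SE 0.28, BH-adjusted p 0.00373). On day 4 it was at 531, 585, 472 and 405 CPM in CTRL and 92.3, 158 and 252 CPM in EXP, 2.98-fold lower (log2 fold change -1.57, SE 0.27, BH-adjusted p 0.000834). On day 1 Id3 libraries did not overlap either, at 434, 474, 417 and 522 CPM in CTRL and 249.7, 332, 281, 403 and 359 CPM in EXP, but the log2 fold change of -0.51 (SE 0.23, BH-adjusted p 0.0993) did not pass. Values over the libraries left out ran from -1.67 to -1.17 on day 2 and from -1.97 to -1.28 on day 4, all called.

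Id1 (ENSMUSG00000042745) was at 9.96, 8.84, 5.49 and 7.71 CPM in day 4 CTRL and 1.93, 1.74 and 2.54 CPM in day 4 EXP, 3.86-fold lower without overlap (log2 fold change -1.95, SE 0.43, BH-adjusted p 0.00395). On day 1 its libraries overlapped broadly, at 4.99, 6.27, 5.80 and 10.2 CPM in CTRL and 7.55, 2.58, 8.06, 12.2 and 14.8 CPM in EXP (log2 fold change 0.41). On day 2 they overlapped as well, at 7.07, 9.98 and 7.64 and 4.79, 9.05 and 8.31 CPM (log2 fold change -0.16). Id2 (ENSMUSG00000020644) fell on day 4 from 144, 111, 117 and 107 CPM in CTRL to 31.1, 45.2 and 68.03 CPM in EXP, without overlap (log2 fold change -1.31, SE 0.31, BH-adjusted p 0.00641). On day 1 Id2 was at 88.3, 108, 109 and 133 CPM in CTRL and 83.6, 38.9, 65.7, 123 and 61.7 CPM in EXP, and on day 2 at 103, 123 and 87.7 and 64.8, 111 and 66.8 CPM, overlapping on both days (log2 fold changes -0.55 and -0.37). The day 4 calls of Id1, Id2 and Id3 held whichever library was left out.

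Tgfbi (ENSMUSG00000035493), which encodes a collagen-binding matrix protein named for its induction by TGF-beta, fell on days 1 and 4. It held 656, 922, 542 and 971 CPM in day 1 CTRL and 344, 328, 505, 388 and 443 CPM in day 1 EXP, 1.93-fold lower without overlap (log2 fold change -0.94, SE 0.25, BH-adjusted p 0.00734). On day 4 it was at 1337, 1558, 1133 and 909 CPM in CTRL and 576, 323 and 932 CPM in EXP, where EXP 3 overlapped CTRL (log2 fold change -1.02, SE 0.29, BH-adjusted p 0.0179). The day 4 call was lost without EXP 1 or EXP 2, with leave-one-out values of -1.46 to -0.73. On day 2 the values were 1645, 1135 and 1611 CPM and 1119, 1230.0 and 874 CPM (log2 fold change -0.45).

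**Figure D5:**
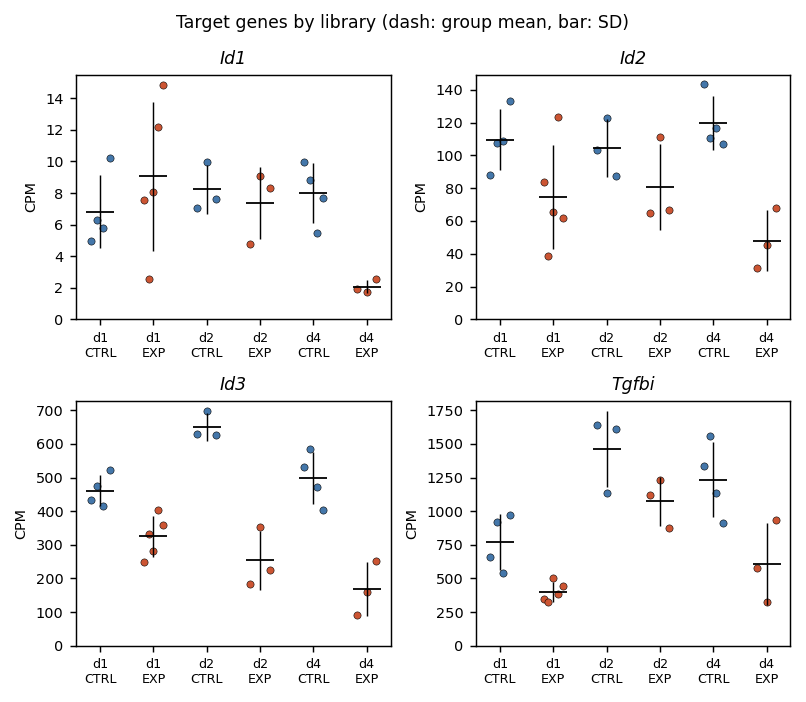
CPM of the 4 target genes Id1, Id2, Id3 and Tgfbi in each library by day and arm, on linear axes. Points are libraries (blue CTRL, red EXP), dashes group means and bars the SD. The 3 day 4 EXP libraries lie below all 4 day 4 CTRL libraries for Id1, Id2 and Id3, and for Tgfbi 1 of them reaches into the CTRL range.

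On day 4 the adipocyte and endothelial marker sums of all 3 EXP libraries lay above those of all 4 CTRL libraries, the endothelial sum being mostly Tek. The collagen share was 9.78, 15.2 and 24.2% in EXP against 20.6 to 27.9% in CTRL, so that EXP 3 lay within the CTRL range. The part of these differences in the falls of day 4 was not tested. In the low-side comparison, with 2 CTRL and 3 EXP libraries, no member was called by edgeR and 1 of 16462 genes was. On day 1 the high side, with 3 CTRL and 2 EXP libraries, gave calls for 2210 of 15942 genes. Why so few genes passed on the low side of day 4 was not tested. Log2 fold changes on the low side were -2.12 for Bmp4, -2.44 for Ltbp4 and -1.74 for Id3, against -2.10, -3.03 and -1.57 over all day 4 libraries. In the fit of day 4 alone 12 members and 1128 of 15845 genes were called. The calls of Tgfb1, Inhbb, Bmp4, Tgfbr1, Smad1, Ltbp1, Fst, Fstl1 and Tgfbi were lost there.

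A joint test asked whether the effect of the expander changed from day to day. It passed for 7 of the 46 members (15.2%), against 8.82% of all genes. Tgfb3 had the smallest adjusted p of these (0.000423), its effect on day 2 exceeding that on day 1 by 2.07 (SE 0.27, BH-adjusted p 0.000505) on the log2 scale. For that pair of days 4 of the 46 members passed (8.70%), against 2.97% of all genes, and for days 4 and 1, 9 members passed (19.6%), against 13.3%. For days 4 and 2, 0 of all 17554 genes passed. The effect on Tgfb3 on day 4 minus that on day 2 was -1.59 (SE 0.28, BH-adjusted p 0.0745). Gdf10 (joint adjusted p 0.0212) had effects that were higher on day 2 than on day 1 by 4.59 (SE 1.14, BH-adjusted p 0.0354) and on day 4 than on day 1 by 3.69 (SE 1.04, BH-adjusted p 0.0256). Chrdl1 (joint adjusted p 0.0367) differed between days 2 and 1 by 5.05 (SE 1.30, BH-adjusted p 0.041). Gdf10 and Chrdl1 were both at 6.11 CPM or less in the day 2 CTRL libraries, below every other CTRL library.

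Id1 (joint adjusted p 0.0234), Gdf15 (0.0409) and Tgfbr1 (0.0496) had lower effects on day 4 than on day 1. The differences were -2.36 (SE 0.55, BH-adjusted p 0.00909) for Id1, -1.37 (SE 0.35, BH-adjusted p 0.0151) for Gdf15 and -1.20 (SE 0.32, BH-adjusted p 0.0183) for Tgfbr1. Bambi (joint adjusted p 0.0441) had a lower effect on day 2 than on day 1, with a difference of -1.25 (SE 0.34, BH-adjusted p 0.0448). Over the alternatives and libraries left out, the joint adjusted p reached at most 0.0126 for Tgfb3, whereas for the other 6 it reached 0.0754 to 0.173. For days 4 and 1 alone, 5 members passed whose joint test did not (joint adjusted p 0.0514 to 0.0915). The effect on day 4 minus that on day 1 was -2.17 (SE 0.61, BH-adjusted p 0.0242) for Ltbp4, -1.07 (SE 0.35, BH-adjusted p 0.0462) for Id3, -1.93 (SE 0.52, BH-adjusted p 0.02) for Tgfb1 and -0.80 (SE 0.22, BH-adjusted p 0.0222) for Smad5, and 0.91 (SE 0.25, BH-adjusted p 0.0203) for Fstl1. These pairwise differences were not computed under the alternatives. For Inhba, Bmp4, Fst and Id2 neither the joint test (adjusted p 0.0862, 0.906, 0.157 and 0.274) nor any pair of days passed.

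Within each arm the change over days was tested as well. In CTRL 0 of the 46 members passed the edgeR test, against 0.291% of all genes, with 9 at an unadjusted p under 0.05. DESeq2 called 4 members and 519 genes in all, and limma voom 5 members and 631 genes. In EXP 12 passed (26.1%, against 14.3% of all genes), namely Tgfb1, Tgfb3, Inhba, Gdf10, Gdf15, Eng, Ltbp4, Fst, Fstl1, Id1, Id3 and Tgfbi. Without day 4 EXP 2, 6 members and 1367 of 18277 genes passed. Tgfb3 had the smallest adjusted p in EXP (2.62e-06), at 27.1 ± 3.67 CPM (SD, n = 5) on day 1, 114 ± 40.4 CPM (SD, n = 3) on day 2 and 44.6 ± 6.28 CPM (SD, n = 3) on day 4. Tgfbi (adjusted p 0.00389) was at 402 ± 73.2 CPM (SD, n = 5), 1074 ± 182 CPM (SD, n = 3) and 610.0 ± 306 CPM (SD, n = 3) on the same days.

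A further list of 78 pathway genes outside the 46 was examined for comparison, of which 77 were in the table and 69 were tested. On day 1, 11 rose and 11 fell (31.9% of those tested), on day 2, 9 rose and 5 fell (20.3%), and on day 4, 12 rose and 15 fell (39.1%), against the background shares of 28.6%, 13.4% and 22.5%. Of the 21 targets on that list, 1 rose on day 1 (Cdkn1a, 4.76% against 13.9% of all genes) and 4 fell (Cdkn2b, Snai2, Bhlhe40 and Postn, 19.05% against 14.7%). On day 2, 4 rose (Ccn2, Nox4, Postn and Acta2, 19.05% against 7.72%) and 1 fell (Cdkn1a, 4.76% against 5.71%), so that Postn and Cdkn1a were called in opposite directions on these days. On day 4, 5 targets rose (23.8% against 12.8% of all genes), with Ccn2, Nox4, Postn and Acta2 among them. On that day 7 targets fell (33.3% against 9.66%, namely Cdkn1a, Cdkn2b, Klf10, Bhlhe40, Msx2, Atoh8 and Hey1). Ccn2, Postn and Acta2 are known for matrix and contraction, and Msx2, Atoh8 and Hey1 as BMP-responsive transcription factors. Cdkn1a, Cdkn2b, Klf10 and Bhlhe40 fell on day 4 as well, as did Tgfbi of the 46, a matrix protein induced by TGF-beta. A division of these calls by branch was not tested.

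Nox4, an oxidase induced by TGF-beta, was at 7.01 to 11.3 CPM in day 2 CTRL and 25.4 to 40.9 CPM in day 2 EXP (log2 fold change 1.88, SE 0.30, BH-adjusted p 0.000638), and on day 4 at 8.02 to 19.6 and 35.00 to 51.4 CPM (1.62, SE 0.27, BH-adjusted p 0.000622). Twsg1, a secreted BMP modulator, fell on all 3 days, with values of -0.57 (SE 0.16, BH-adjusted p 0.0103), -0.82 (SE 0.19, BH-adjusted p 0.0083) and -1.10 (SE 0.19, BH-adjusted p 0.000719). Chrd (chordin), a BMP antagonist, fell on day 1 (-1.77, SE 0.32, BH-adjusted p 0.000398) and day 2 (-2.22, SE 0.40, BH-adjusted p 0.00138). Nedd4l, a ubiquitin ligase that removes activated SMAD2 and SMAD3, rose on day 1 (1.76, SE 0.28, BH-adjusted p 0.000158) and day 4 (1.00, SE 0.31, BH-adjusted p 0.0252). Hipk2, a nuclear kinase, rose on the same days, by 1.73 (SE 0.31, BH-adjusted p 0.000387) and 1.19 (SE 0.34, BH-adjusted p 0.0167). Furin, the protease that cuts TGF-beta precursors, rose on day 1 (1.19, SE 0.22, BH-adjusted p 0.000468) and day 2 (1.27, SE 0.26, BH-adjusted p 0.00373).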

How the data were processed

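The authors deposited 1 table of raw read counts per gene for the 22 libraries, with Ensembl identifiers. Per the submitters' processing notes Trimmomatic was used and the build was mm39. The aligner, the counting tool, the annotation and the use of strand are not given in the sources used here. Symbols came from GENCODE M21 (52081 of 55414 identifiers). Exons of 14 members overlap another M21 gene, 13 of them on the opposite strand, and their counts are uncertain. On the opposite strand these are Tgfb2, Tgfb3, Bmp4, Bmp5, Bmp6, Eng, Acvr2a, Acvrl1, Bmpr1a, Ltbp2, Ltbp3, Fst and Fstl3. Tgfbr3 overlaps a gene on its own strand.

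Counts were analysed in R 4.3.3 with edgeR 4.0.16: filterByExpr (minimum count 10), TMM, a mean per group over all 22 libraries (16 residual degrees of freedom) and robust quasi-likelihood tests, two-sided, with Benjamini-Hochberg adjustment over all genes within a comparison. Depth floors of 3 counts cover counting error only. Replicates differed by far more than sampling noise, with chi-square per degree of freedom of 27.3 to 437. DESeq2 1.42.0 and limma 3.58.1 (voom) were alternatives, with other scalings, no filter, a replicate block, the library split and libraries left out.

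Every library's value is given for at most 4 members per role that were called with a mean of at least 5 CPM and no overlap on a day, by smallest p, and for at most 2 per role that passed the joint test of days. Members and lists were chosen with earlier results of these data known. The test was checked on simulated day 1 data for 17111 genes, 200 of them changed, where it found 33.3% of 2-fold and 75.5% of 4-fold changes with 4 false calls among 111. All groups otherwise shared the same mean per gene, and far fewer genes changed than the 28.6% called on day 1. These simulated shares therefore do not carry over to the real comparisons. Promoters came from RefSeq (GRCm38.p6), were matched by symbol and carry coordinates of that build, and no other coordinates are given because the builds differ. The result of 1 gene on the further pathway list is not reported here.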

Additional observations from a re-analysis of the deposited data

Results flagged for a closer look

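In 138 sets of 1 gene in 1 group of 4 or 5 libraries, 8 had a library that stood far from the others, where chance alone gives about 1 in 20, or 6.9. Day 1 EXP 2 was the high library for 3 genes: Bmp5 at 1.98 CPM against 0 to 0.145, Gdf10 at 42.2 CPM against 1.20 to 6.46, and Chrdl1 at 54.1 CPM against 0.656 to 13.4. Day 4 CTRL 2 was the high library for Gdf15 (62.2 CPM against 33.8 to 36.97) and Bmpr1a (28.4 CPM against 17.98 to 19.5). The others were Bmp6 in day 4 CTRL 3 (1.76 CPM against 0.0429 to 0.0967), Tgfbr1 in day 1 CTRL 2 (122.9 CPM against 89.8 to 90.4) and Bmpr2 in day 1 EXP 3 (70.8 CPM against 28.02 to 35.3).

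For 7 genes the EXP effect differed between days by the joint edgeR test, against 8.82% of all genes. The adjusted p was 0.000423 for Tgfb3, 0.0212 for Gdf10, 0.0234 for Id1, 0.0367 for Chrdl1, 0.0409 for Gdf15, 0.0441 for Bambi and 0.0496 for Tgfbr1. Of these, Gdf10, Chrdl1, Gdf15 and Tgfbr1 also had a library that stood apart.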

How the results depend on the processing

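No called value changed sign under any alternative, and counts of called members moved as follows. On day 1 the 10 calls became 16 with limma voom and 5 in high-side libraries of the split. Over all genes the 5017 calls of that day became 5818 of 17554 and 2210 of 15942. On day 2 the 16 became 10 without a filter on low counts, with 1663 of 33490 genes against 2359 of 17554. Leaving out single libraries gave 7 to 14 (7 without CTRL 2 or EXP 1, 10 without CTRL 1). All-gene calls were then 1220 of 18331, 891 of 18265 and 1465 of 18383. On day 4 the 20 became 12 in the fit of day 4 alone, with 1128 of 15845 genes against 3943 in the main fit. On the low side of the split they became 0, where 1 of 16462 genes was called. Over libraries left out they became 10 to 23 (10 without EXP 1 or EXP 2, with 1633 of 18149 and 2001 of 18277 genes). The 7 members whose effect differed between days became 13 with DESeq2, 14 with limma voom and 3 without a filter. All-gene calls of that test went from 1549 to 2606, 2352 and 1110, the last of 33490 genes. Over libraries left out the 7 became 3 to 15 (15 without day 4 EXP 3, with 2572 of 18336 genes). Changes over days in CTRL went from 0 to 4 with DESeq2 and 5 with limma voom, and over all genes from 51 to 519 and 631. Those in EXP went from 12 to 6 to 16 over libraries left out (6 without day 4 EXP 2). All-gene calls in EXP went from 2502 of 17554 to 1367 of 18277 without that library.

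With the replicate number as a block, 2 members differed between days, and 9, 16 and 17 were called on days 1, 2 and 4. Over all genes the block gave 401 that differed between days, and 4337, 2210 and 2702 called on the 3 days. Deviations of same-numbered libraries correlated by -0.066 to 0.164, so the numbers were not taken as pairs. Changes over days could not be fitted with a block nested in day.

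Calls made in every leave-one-out fit numbered 6 of 10, 6 of 16 and 8 of 20 on the 3 days. Among the 78 other pathway genes, day 1 went from 22 calls to 8 on the high side of the split. Day 2 went from 14 to 23 with DESeq2, 32 with limma voom and 29 in the fit of day 2 alone. All-gene calls of that day went from 2359 to 3123, 4620 and 3514, the last of 15350 genes. Over libraries left out the 14 became 8 to 17. Day 4 went from 27 to 10 in the fit of day 4 alone, 0 on the low side and 12 to 33 over libraries left out. By union of exons as length, 21 in place of 24 members reached 10 CPM per kb. Depth limits Bmp5, Bmp6 and Bmpr1b, which lay near 3 counts in many libraries.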
